A study of Homo sapiens with 9 samples.

Results

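RNA levels of 10 genes of antigen presentation that lie outside the HLA genes themselves were followed through 9 libraries: B2M, TAP1, TAP2, TAPBP, ERAP1, NLRC5, CD74, CTSS, CIITA and RFX5. They were taken by name from a table of 57338 genes, and all 10 symbols matched an Ensembl identifier. The libraries were labelled as HEK293T, a human embryonic kidney cell line, into which a plasmid had been transfected. The plasmid coded either for the green fluorescent protein EGFP (empty vector) or for its fusion with human protamine 1 (hPRM1) or human protamine 2 (hPRM2). Protamines are the small basic proteins that package DNA in sperm. By the study's methods all cells, the controls included, carried EGFP from a plasmid, and live cells with high EGFP signal were sorted 3 days after transfection. Each condition had 3 libraries, numbered as replicates 1 to 3, all labelled as the same cell line. Because the labels do not say whether these came from separate cultures, p-values measure only the spread between these libraries.

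Antigen presentation shows fragments of proteins on the cell surface to T cells. In the class I route, peptides made by the proteasome are pumped into the endoplasmic reticulum, trimmed and loaded onto HLA class I molecules, which most nucleated cells carry. In the class II route, which is largely kept to B cells, monocytes, macrophages and dendritic cells, the invariant chain guides HLA class II molecules to endosomes and is cut away there so that peptides can bind. Transcription of both routes is driven by a complex on the promoters, to which RFX5 and its partners bind, and by the coactivators NLRC5 for class I and CIITA for class II. Interferon gamma raises many of these genes.

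The libraries labelled hPRM1 went against their label, which bears on each value given for them. PRM1, the transfected gene, was listed at 0 in all 9 libraries, and whether 3′ tags of the fusion transcript fall within PRM1 was not tested. PRM2 was listed at 0 in the empty vector and hPRM1-labelled libraries and lay between 36130 and 71224 RPKM in the hPRM2 libraries. The 7 markers of HEK293T cells summed to 545.7 to 581.9 RPKM with the empty vector and to 372.3 to 534.3 with hPRM2. In the libraries labelled hPRM1 they summed to 0 to 0.306 RPKM, and LIN28B, IGF2BP1, HMGA2, UCHL1, NEFM and TUBB2B were at 0 throughout. The 5 erythroid markers summed to between 2060000 and 2266000 RPKM in these libraries and to at most 17.98 RPKM in the other 6. The library numbers of the hPRM1-labelled libraries also belong to a different number range from those of the other 6. Whatever that range stands for cannot be told apart from the condition. RPKM is the read count of a gene scaled by gene length and by the total of counted reads in the library. Since the kit named in the labels reads 3′ ends, dividing by gene length does not put different genes on 1 scale, and values are compared here between libraries and not between genes.

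**Figure D1:**
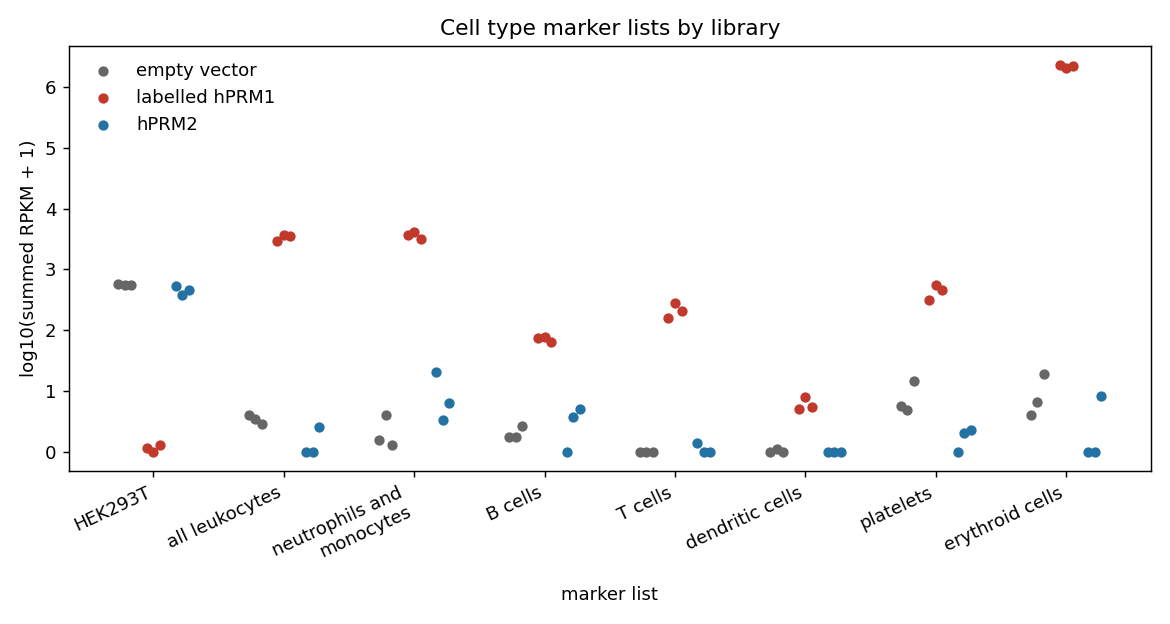
Summed RPKM of 8 marker lists, as log10(summed RPKM + 1), with 1 point for each of the 9 libraries. The hPRM1-labelled libraries had HEK293T markers between 0 and 0.306 RPKM and erythroid markers between 2060000 and 2266000 RPKM, while the empty vector and hPRM2 libraries had HEK293T markers between 372.3 and 581.9 RPKM.

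The promoters show which of these genes carry the sequence elements that the interferon response and the promoter complex are known to use. RefSeq windows on GRCh38.p14 that reach from 250 bases before to 50 bases after a start site were at hand for 7 of the 10 members, in 11 windows, and not for CIITA, NLRC5 and CTSS. 4 windows are shown up to the start site, namely B2M, TAP1 (first of 2 windows) and TAPBP for the class I route and CD74 for the class II route. Each is written 5′ to 3′ on the strand of the gene, and capitals mark the motif matches that are described after them.
B2M promoter, chr15:44711267-44711516, plus strand: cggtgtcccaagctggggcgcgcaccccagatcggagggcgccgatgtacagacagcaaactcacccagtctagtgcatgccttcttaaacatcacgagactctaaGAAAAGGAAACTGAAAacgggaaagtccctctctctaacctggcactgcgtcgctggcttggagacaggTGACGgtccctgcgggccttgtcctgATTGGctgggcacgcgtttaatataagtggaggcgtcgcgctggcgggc
TAP1 promoter, chr6:32853705-32853954, minus strand: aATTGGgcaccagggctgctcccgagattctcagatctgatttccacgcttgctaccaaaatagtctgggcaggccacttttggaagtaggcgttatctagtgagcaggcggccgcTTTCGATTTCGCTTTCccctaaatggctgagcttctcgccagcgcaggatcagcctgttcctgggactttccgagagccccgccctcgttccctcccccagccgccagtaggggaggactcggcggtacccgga
TAPBP promoter, chr6:33314079-33314328, minus strand: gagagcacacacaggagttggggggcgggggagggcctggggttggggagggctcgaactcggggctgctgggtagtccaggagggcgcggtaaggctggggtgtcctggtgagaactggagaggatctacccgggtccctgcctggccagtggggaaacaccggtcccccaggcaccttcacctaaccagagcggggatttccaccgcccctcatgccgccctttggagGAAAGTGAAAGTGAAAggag
CD74 promoter, chr5:150412911-150413160, minus strand: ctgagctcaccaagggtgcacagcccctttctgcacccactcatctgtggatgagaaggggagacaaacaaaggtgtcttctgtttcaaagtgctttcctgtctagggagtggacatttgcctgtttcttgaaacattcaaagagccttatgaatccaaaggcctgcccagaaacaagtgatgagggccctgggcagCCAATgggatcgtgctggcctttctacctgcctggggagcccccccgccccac

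The element of interferon regulatory factors was searched as GAAA followed, after any 2 bases, by GAAA, on both strands. It was found in 6 of the 11 windows, 1 each of B2M, TAP1, TAP2, TAPBP, ERAP1 and RFX5, and in 3.57% of 35116 RefSeq windows of this length. In B2M it matched from position -144 to -135 and, overlapping that, from -138 to -129, counted from the start site. TAP1 had matches from -134 to -125 and from -128 to -119, and TAPBP from -20 to -11 and from -14 to -5, overlapping in the same way. CD74 had no match in this window.

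CCAAT, the box bound by NF-Y, was found on either strand in 5 of the 11 windows and in 34.6% of all windows. It lay at -49 to -45 in B2M, at -249 to -245 in TAP1 and at -53 to -49 in CD74. TGACG, the core of the element bound by CREB and its relatives, was found in 4 of the 11 windows, 2 of them of RFX5, and in 24.6% of all windows. Those 2 RFX5 windows overlap, and the same genomic site was matched in both. B2M held TGACG at -75 to -71. These matches are letters in a window and were not tested as binding sites.

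Of the 7 members with an RPKM of at least 1 in some library of both groups, 5 had higher levels in the hPRM1-labelled than in the empty vector libraries, RFX5 was lower and ERAP1 was not called. CD74, CTSS and CIITA were listed at 0 in the empty vector libraries and were found in all 3 libraries labelled hPRM1. Of the 7, B2M, TAP1, TAP2, TAPBP, ERAP1 and NLRC5 stood 2.42 to 5.59 above the median gene on the log2 scale. With hPRM2, no member passed the test, and the level of B2M was the only one to lie above the empty vector in all 3 libraries without overlap. Values were compared on log2(RPKM + 1) with limma, with Benjamini-Hochberg adjustment over all genes tested, and a gene was called at an adjusted p of at most 0.05 and a change of at least 2-fold. Adding 1 to each RPKM makes the fold change of weakly expressed genes look smaller than it is.

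**Figure D2:**
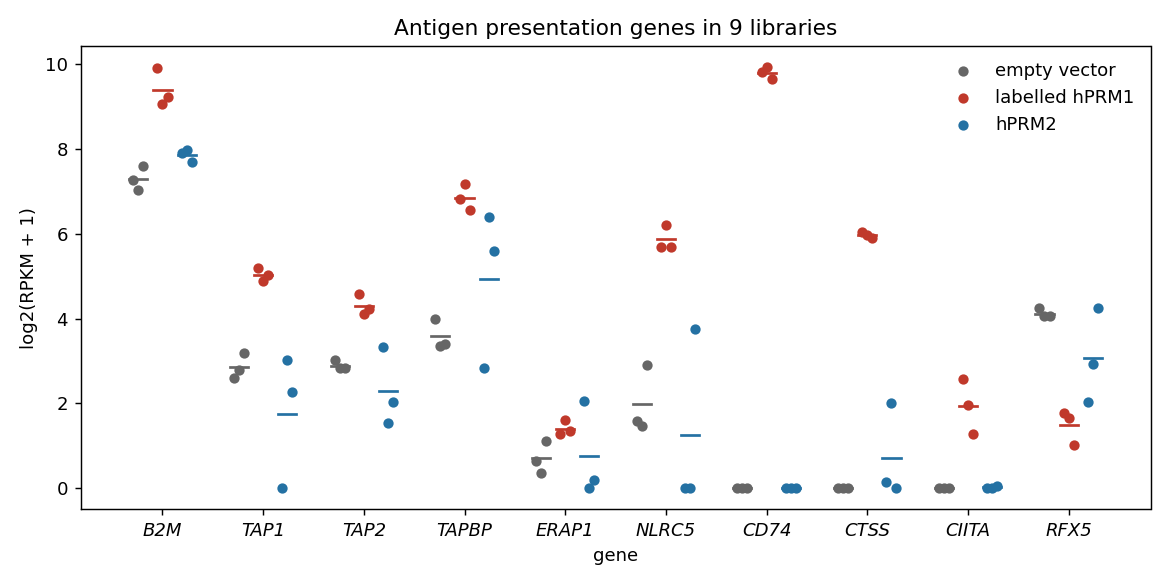
RNA level of the 10 genes as log2(RPKM + 1), with 1 point for each library and a bar for the mean of the 3 libraries of a group. The hPRM1-labelled libraries lie above all empty vector libraries for every gene but RFX5, and CD74, CTSS and CIITA are listed at 0 in all 3 empty vector libraries. The hPRM2 points are spread widely for TAP1, TAPBP and NLRC5.

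Of the 13588 genes tested between the hPRM1-labelled and the empty vector libraries, 12.9% were called higher and 62.5% lower. All 10 members entered the fit. CD74, CTSS and CIITA passed the filter on low values only through the libraries labelled hPRM1, so that they had to differ, and their values are given without a test. Of the other 7 members, 5 were called higher, 1 lower and 1 not called. The groups did not overlap in any of the 10 members, 9 with the hPRM1-labelled libraries higher, 3 of them fixed by the filter, and 1 with them lower, beside 14.5% and 66.4% of all genes tested. The median of all genes was -1.72 on the log2 scale, as the deposited scaling by total reads leaves it, and the changes of the 7 members are therefore also given relative to that median. Blood cell markers were also higher in the same 3 libraries, and the part of blood cells in the members' values was not tested. In bulk RNA, fewer cells of a type and less RNA per cell cannot be told apart.

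B2M, the light chain that every HLA class I molecule needs, had 153, 131 and 191 RPKM in the empty vector libraries. The libraries labelled hPRM1 had 960, 531 and 596 RPKM, each of them above the highest control. The log2 fold change was 2.09 ± 0.27 (SE, n = 3 and 3, adjusted p = 0.000379 with limma), or 3.81 above the median gene. B2M lies on chromosome 15 of GRCh38 from 44711487 to 44718877, as annotated in GENCODE 29.

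TAP1 and TAP2 form the pump that carries peptides from the cytosol into the endoplasmic reticulum. TAP1 had 5.01, 5.87 and 8.07 RPKM with the empty vector and 35.5, 28.5 and 31.7 RPKM in the libraries labelled hPRM1. Its log2 fold change was 2.18 ± 0.23 (SE, adjusted p = 0.000149 with limma), or 3.90 above the median gene. For TAP2 the controls had 7.07, 6.12 and 6.08 RPKM and the libraries labelled hPRM1 had 23.0, 16.3 and 17.6 RPKM. The rise of TAP2 was the smallest of the 5, with a log2 fold change of 1.42 ± 0.21 (SE, adjusted p = 0.000808 with limma), or 3.13 above the median gene. Both genes lie in the MHC region of chromosome 6, TAP2 from 32821833 to 32838780 and TAP1 from 32845209 to 32853978. The span of TAP1 lies within that of PSMB9 on the opposite strand, sharing 8770 bases. TAP2 shares 16948 bases with AL669918.1 on its own strand. The sources used here do not state how reads on overlapping genes were counted, so the values of these genes are uncertain to that extent.

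Tapasin, encoded by TAPBP, holds empty class I molecules at the TAP pump until a peptide is bound. TAPBP had 14.8, 9.26 and 9.56 RPKM with the empty vector and 112, 144 and 92.9 RPKM in the libraries labelled hPRM1. The groups were far apart, and the log2 fold change was 3.27 ± 0.26 (SE, adjusted p = 4.6e-05 with limma), or 4.99 above the median gene. The gene lies on chromosome 6 from 33299694 to 33314387. ERAP1, the peptidase that trims peptides in the endoplasmic reticulum, was low in every library. It had 0.549, 0.282 and 1.17 RPKM with the empty vector and 1.41, 2.03 and 1.56 RPKM in the libraries labelled hPRM1. The difference of 0.71 ± 0.25 on the log2 scale (SE, adjusted p = 0.0364 with limma) stayed under the 2-fold threshold and lay 2.42 above the median gene. With each library rescaled by the median of its gene ratios, the difference for ERAP1 was 1.79 and was called. ERAP1 shares 18786 bases of its span, on chromosome 5 from 96760810 to 96808100, with CAST on the other strand.

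NLRC5, the coactivator of class I genes, had 2.01, 1.78 and 6.49 RPKM in the empty vector libraries. The libraries labelled hPRM1 had 50.8, 72.9 and 50.8 RPKM. The log2 fold change of 3.88 ± 0.42 (SE, adjusted p = 0.000168 with limma) corresponded to a ratio of the mean RPKM of 17.0 and lay 5.59 above the median gene. NLRC5 lies on chromosome 16 from 56989485 to 57083531.

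The class II genes were listed at 0 in the controls. CD74, the invariant chain, was at 0 RPKM in all 3 empty vector libraries and at 897, 977 and 798 RPKM in the libraries labelled hPRM1. CTSS, the cathepsin that makes the last cuts in the invariant chain, was at 0 RPKM in the same controls and at 64.5, 61.4 and 58.9 RPKM in the libraries labelled hPRM1. CIITA, the coactivator of class II genes, was at 0 RPKM in the controls and at 4.94, 2.87 and 1.44 RPKM in the libraries labelled hPRM1. No fold change or test is given against a group listed at 0. CD74 lies on chromosome 5 from 150401637 to 150412929, CTSS on chromosome 1 from 150730196 to 150765957 and CIITA on chromosome 16 from 10866222 to 10943021, where it shares 13570 bases with DEXI on the other strand.

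RFX5, a subunit of the factor that binds the promoters of both routes, was the only member to go the other way. It had 17.9, 15.6 and 15.7 RPKM with the empty vector and 2.41, 2.14 and 1.04 RPKM in the libraries labelled hPRM1. The log2 fold change was -2.64 ± 0.26 (SE, adjusted p = 0.000106 with limma), which is -0.92 relative to the median gene. After median-of-ratios rescaling RFX5 was no longer called, at -0.86 (adjusted p = 0.0374 with limma), while B2M, TAP1, TAP2, TAPBP, ERAP1 and NLRC5 were then called higher. With that rescaling the median of all genes was -0.12, and 49.9% of the called genes were higher, against 17.1% with the deposited scaling. Quantile normalization kept RFX5 lower at -1.06, with 44.2% of called genes higher. The gene lies on chromosome 1 from 151340640 to 151347357.

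Markers of several blood cell types were found in the same libraries. The 6 markers of all leukocytes summed to 2882 to 3641 RPKM in the libraries labelled hPRM1, with every marker at 1 RPKM or more in all 3. In the empty vector libraries they summed to 1.911 to 3.082 RPKM and with hPRM2 to 0 to 1.601 RPKM. The 6 markers of neutrophils and monocytes summed to 3147 to 4041 RPKM, against at most 3.02 with the empty vector and 19.34 with hPRM2. The 5 B cell markers summed to 63.58 to 76.67 RPKM in the libraries labelled hPRM1 and to at most 4.135 in the other 6, where CD79A, CD79B and MS4A1 were at 0. The 5 T cell markers summed to 156.6 to 282.5 RPKM against at most 0.4058 RPKM. The 4 dendritic cell markers summed to 4.154 to 7.026 RPKM, with CLEC9A at 0 in all 9 libraries, and the 4 platelet markers to 312.4 to 543.8 RPKM against at most 13.5 RPKM. For each of these lists the hPRM1-labelled libraries lay above all others, which gives p = 0.1 in a two-sided exact permutation test against the empty vector, the smallest that 3 against 3 libraries allow.

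**Figure D3:**
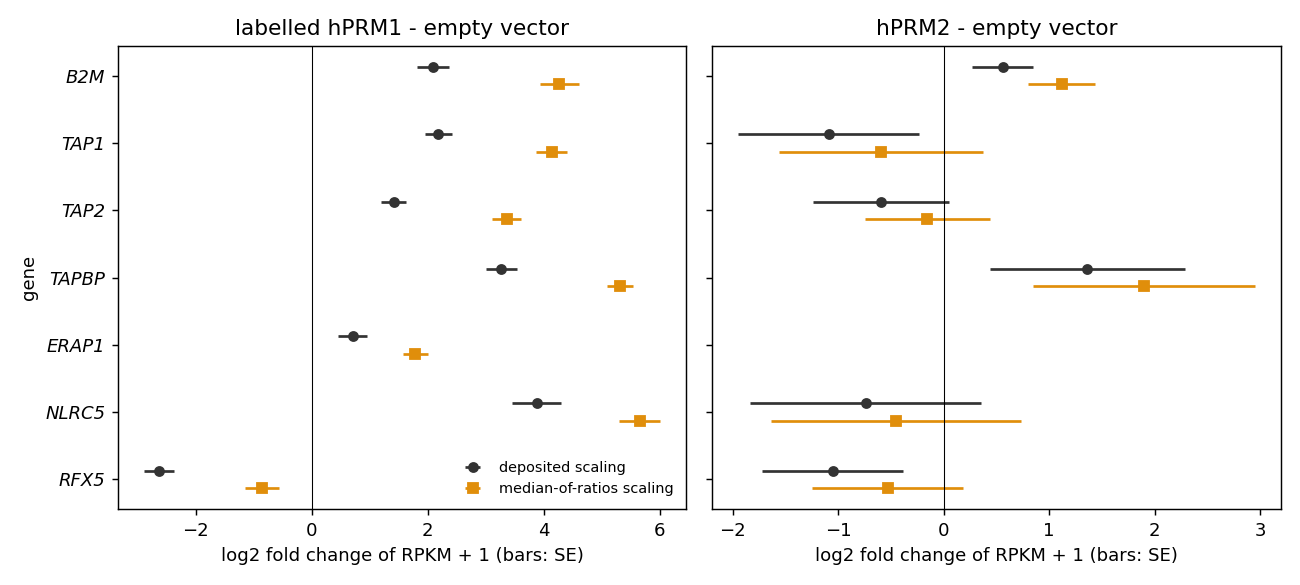
Log2 fold change of RPKM + 1 against the empty vector for the members detected in the empty vector libraries, with bars for the SE and n = 3 and 3, under the deposited scaling (circles) and median-of-ratios scaling (squares). CD74, CTSS and CIITA, listed at 0 in the empty vector, are left out, and ERAP1 was not tested in the hPRM2 comparison. In the left panel RFX5 moves from -2.64 to -0.86, and in the right panel B2M has the shortest bars, while those of TAP1, TAP2, TAPBP, NLRC5 and RFX5 each span more than 1 unit from end to end.

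The hPRM2 libraries had all 7 markers of HEK293T cells at 1 RPKM or more in each of the 3. They were the shallowest, with an estimated 1270000 to 2650000 reads on genes against 7930000 to 10800000 with the empty vector and 4210000 to 5860000 in the libraries labelled hPRM1. By the reads obtained that the paper reports, a different measure, the hPRM1 samples had the fewest. For CD74, with 1727 bases in its longest coding transcript, 3 reads would have given 0.766 to 1.60 RPKM with hPRM2 and 0.188 to 0.256 RPKM with the empty vector. Replicate 1 of hPRM2 stood apart, with 9652 genes above 0 against 14353 and 15633 in the other 2. It was the deepest of the 3 by the same estimate, with 2650000 reads on genes. Of the 13126 genes tested against the empty vector, 1.36% were called higher and 1.37% lower. 6 members could be tested, and 0 were called. The limma fit called 359 genes in all, and 3351 had an unadjusted p under 0.05. For 1 member, B2M, the hPRM2 libraries lay above the controls without overlap, beside 6.01% of all genes tested, and for 0 members they lay below, beside 29.9%. The median of all genes was -0.72 on the log2 scale. Relative to it, the 6 members stood at 1.28 for B2M, 2.08 for TAPBP, 0.13 for TAP2, -0.019 for NLRC5, -0.33 for RFX5 and -0.37 for TAP1.

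B2M had 240, 253 and 204 RPKM with hPRM2, each above the highest control value of 191 RPKM. Its log2 fold change was 0.56 (95% interval -0.13 to 1.25, adjusted p = 0.269 with limma). TAPBP was uneven among the hPRM2 libraries, with 6.12, 83.8 and 47.3 RPKM, so that replicate 1 lay below the controls and the other 2 above them. The log2 fold change of TAPBP was 1.36 (95% interval -0.81 to 3.54, adjusted p = 0.372 with limma). Without replicate 1 of hPRM2 it was 2.42 (adjusted p = 0.0225 with limma) and was called, the only member so called. That fit called 810 genes higher and 1619 lower of all 13126 tested. With median-of-ratios rescaling and without that library, a setting chosen after seeing the data, the value of TAPBP was 3.12 (adjusted p = 0.0135 with limma). There, 1156 of all genes tested were called higher and 331 lower.

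For the other 4 members that were tested the interval of the difference included 0. TAP1 had 0, 7.09 and 3.80 RPKM with hPRM2, and its log2 fold change was -1.09 (95% interval -3.12 to 0.94, adjusted p = 0.436 with limma). TAP2 had 9.03, 1.88 and 3.09 RPKM, overlapping the controls, with a log2 fold change of -0.59 (95% interval -2.13 to 0.94, adjusted p = 0.571 with limma). Replicate 1 was thus the lowest of its group in TAP1 and the highest in TAP2, the partner in the same pump. NLRC5 was listed at 0 in replicates 1 and 2 and had 12.4 RPKM in replicate 3, above all controls. Its log2 fold change was -0.74 (95% interval -3.33 to 1.85, adjusted p = 0.681 with limma). RFX5 had 3.06, 6.61 and 18.0 RPKM, and only replicate 3 reached the level of the controls. The log2 fold change of RFX5 was -1.05 (95% interval -2.63 to 0.52, adjusted p = 0.346 with limma). The direction was not stable under other scalings for TAP2 and NLRC5, which stood at 0.078 and 0.33 with quantile normalization, nor for TAP1, NLRC5 and RFX5 with median-of-ratios rescaling and without replicate 1 of hPRM2 (0.42, 0.22 and 0.14).

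The 4 members that did not pass the filter on low values with hPRM2 were compared by their RPKM values alone. CD74 was listed at 0 in all 3 hPRM2 libraries, as in the controls. The limit that 3 reads set for it is the one given for this gene with the depths, and it covers counting error only. CTSS had 0.0977, 3.05 and 0 RPKM, and the 3.05 RPKM of replicate 2 corresponded to an estimated 15 reads on its longest coding transcript. The difference from the controls, all at 0, had p = 0.4 in a two-sided exact permutation test. CIITA was at 0 in replicates 1 and 2 and at 0.0393 RPKM in replicate 3, about 1 read. ERAP1 had 3.16, 0 and 0.137 RPKM, which enclose the control values of 0.282 to 1.17 RPKM (p = 1, two-sided exact permutation test). With 3 against 3 libraries these tests cannot give a p under 0.1.

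Between the hPRM1-labelled and the hPRM2 libraries, CD74 and CIITA again passed the filter only through the libraries labelled hPRM1 and had to differ. Of the other 8 members, 5 were called higher in the libraries labelled hPRM1 and 0 lower, beside 16% and 37% of the 11756 genes tested. These were CTSS, with a log2 fold change of 5.25 ± 0.62 (SE, adjusted p = 0.000892 with limma), NLRC5, with 4.62 ± 1.06 (SE, adjusted p = 0.0116 with limma), B2M, TAP1 and TAP2. CTSS and NLRC5 each reached an RPKM of 1 in only 1 of the 3 hPRM2 libraries. For both, the filter was thus met mainly through the libraries labelled hPRM1, where they were high. TAPBP was 1.90 higher and was not called (adjusted p = 0.131 with limma), and its hPRM2 values ran from 6.12 to 83.8 RPKM. ERAP1 (0.66, adjusted p = 0.385) and RFX5 (-1.58, adjusted p = 0.0838) were not called by limma either. Without replicate 2 of the libraries labelled hPRM1, TAP1, TAP2 and NLRC5 were lost. TAP1 and TAP2 were also lost without replicate 1 or replicate 3 of that group, and TAP2 without replicate 3 of hPRM2. Without replicate 1 of hPRM2, ERAP1 was called higher at 1.32 and RFX5 lower at -2.11. The hPRM2 libraries left had 0 and 0.137 RPKM of ERAP1. Its filter was thus met only through the libraries labelled hPRM1, which fixed its direction. That fit called 2132 genes higher and 5563 lower of 11756 tested. This comparison and the one with the empty vector share the hPRM1-labelled libraries.

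A list of 37 further genes of antigen processing and presentation was examined, all of which matched the table. Of the 36 tested between the hPRM1-labelled and the empty vector libraries, 11 were higher, 14 lower and 11 not called, beside 12.9% and 62.5% of all genes tested. PSMB8, TAPBPL, CD86, CD1C and CD1D passed the filter only through the libraries labelled hPRM1, and NFYA only through the empty vector libraries, so that their direction was fixed. Of the other 30 genes, 6 were higher, 13 lower and 11 not called, with a median log2 fold change of -0.59 against -1.72 over all genes. With median-of-ratios rescaling 21 of the 36 were higher and 5 lower, beside 3926 and 3945 of all 13588 genes tested. With quantile normalization these were 21 and 6, beside 3475 and 4388 of all genes tested. The list thus moved in both directions, and the split changed with the scaling.

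The immunoproteasome, a form of the proteasome with catalytic subunits induced by interferon gamma, had 2 of its 3 subunits at higher levels. PSMB8 was at 0 RPKM in all 3 empty vector libraries and at 120, 109 and 103 RPKM in the libraries labelled hPRM1. The filter on low values fixed the direction of PSMB8. PSMB9 had 1.26, 4.11 and 0.349 RPKM in the controls and 214, 209 and 188 RPKM in the libraries labelled hPRM1, a log2 fold change of 6.36 ± 0.47 (SE, adjusted p = 3.17e-05 with limma). PSMB10 had 17.7, 12.2 and 4.29 RPKM against 16.8, 9.65 and 22.4 RPKM, and its log2 fold change of 0.59 ± 0.53 (SE) was not called. With median-of-ratios rescaling PSMB10 was called higher at 2.57, and quantile normalization gave 2.21. TAPBPL, a tapasin relative that edits class I peptides, had 0, 0.315 and 0 RPKM in the controls and 22.9, 18.1 and 16.6 RPKM in the libraries labelled hPRM1. IRF1, an interferon-induced transcription factor, had 10.5, 10.5 and 9.55 RPKM in the controls and 109, 133 and 139 RPKM in the libraries labelled hPRM1, a log2 fold change of 3.51 ± 0.18 (SE, adjusted p = 8.77e-06 with limma). Of the 7 genes of interferon signalling, 4 were higher, 0 lower and 3 not called, beside 12.9% higher and 62.5% lower of all genes tested. With median-of-ratios rescaling 6 of the 7 were higher and 0 lower, beside 3926 and 3945 of all 13588 genes tested.

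The 4 largest falls were those of LGMN, CTSL, RFXAP and CANX. LGMN, the lysosomal protease legumain, had 89.3, 74.1 and 143 RPKM with the empty vector and 1.75, 0.321 and 3.90 RPKM in the libraries labelled hPRM1. CTSL, the lysosomal cathepsin L, had 56.4, 70.0 and 79.6 RPKM in the controls and 1.62, 1.61 and 0.259 RPKM in the libraries labelled hPRM1. Their log2 fold changes were -5.25 ± 0.51 for LGMN and -5.07 ± 0.35 for CTSL (SE), both called. CTSS, a member of the same protease family as CTSL, was at 0 RPKM in the controls and at 58.9 RPKM or more in the libraries labelled hPRM1. RFXAP, which binds promoters together with RFX5, had 37.9, 43.8 and 55.5 RPKM in the controls and 0.415, 1.39 and 3.75 RPKM in the libraries labelled hPRM1. CANX, the chaperone calnexin, had 239, 230 and 281 RPKM in the controls and 12.8, 18.5 and 13.3 RPKM in the libraries labelled hPRM1. The log2 fold changes were -4.19 ± 0.45 for RFXAP and -4.00 ± 0.21 for CANX (SE), both called. Of the 6 partners in the promoter complex, 5 were lower, among them NFYA, and 1 was not called. Of the 5 loading chaperones 1, TAPBPL, was higher and 4 were lower. The filter on low values fixed the direction of NFYA and of TAPBPL. Beside these counts, 12.9% of all genes tested were higher and 62.5% lower. After median-of-ratios rescaling these counts were 1 higher and 1 lower for the promoter complex, and 1 higher and 2 lower for the chaperones. Over all 13588 genes tested, that rescaling called 3926 higher and 3945 lower.

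**Figure D4:**
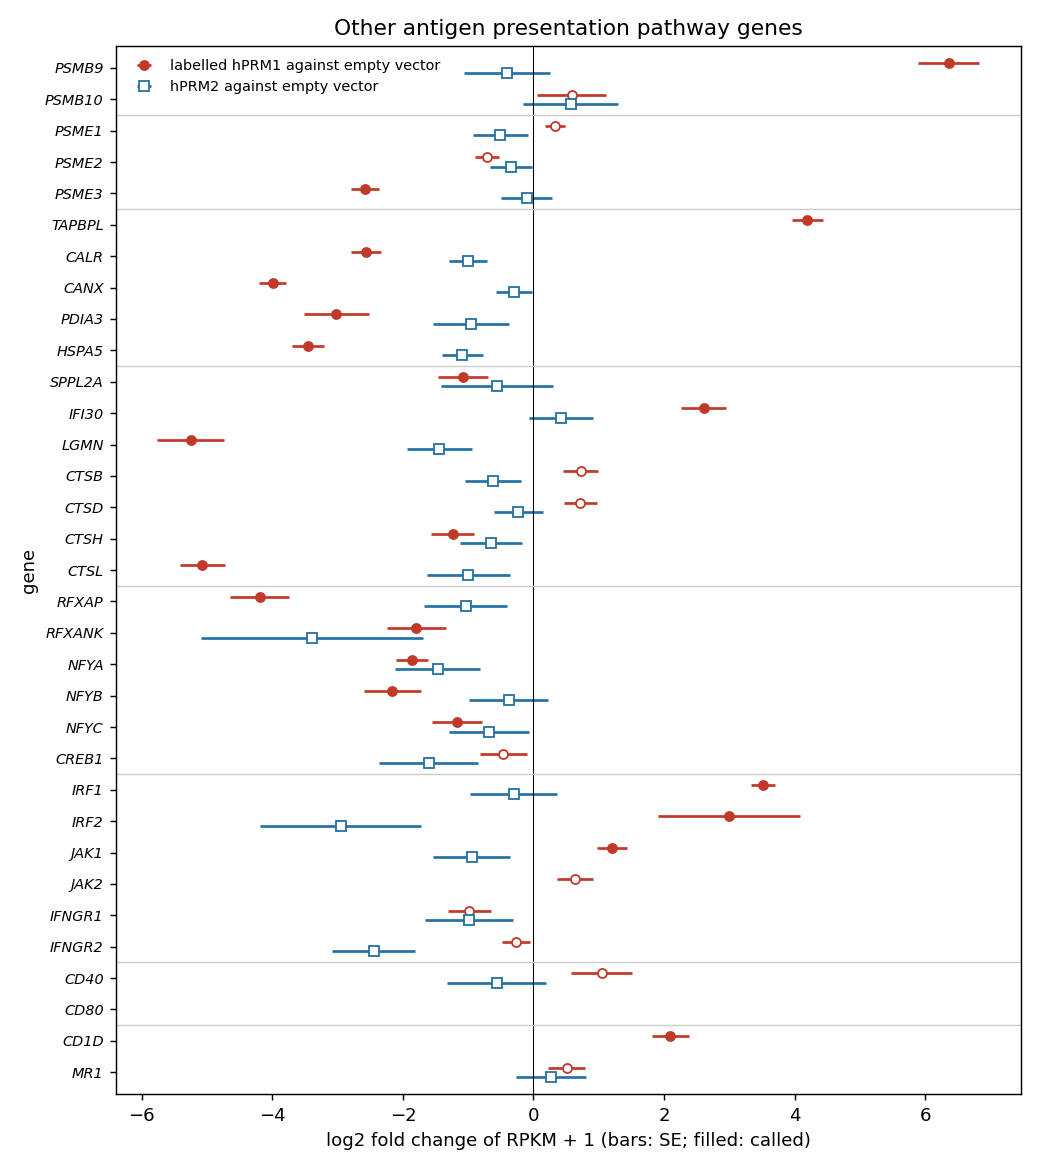
Log2 fold change of RPKM + 1 against the empty vector for tested genes of the pathway list that were detected in the empty vector libraries, with bars for the SE and n = 3 and 3. Filled symbols were called, PSMB8, CD86 and CD1C are left out because they were listed at 0 in the empty vector, and CD80 was not tested. For TAPBPL, CD1D and NFYA the filter on low values fixed the direction in the hPRM1-labelled comparison. The libraries labelled hPRM1 (circles) spread from -5.25 for LGMN to 6.36 for PSMB9, and none of the hPRM2 symbols (squares) is filled.

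With hPRM2, 30 genes of the list were tested and 0 were called by limma, beside 1.36% higher and 1.37% lower of all genes. Their median log2 fold change was -0.66, close to the -0.72 of all genes. Positive values were seen for 3 of the 30, namely PSMB10 at 0.57, IFI30 at 0.42 and MR1 at 0.27, and the next was PSME3 at -0.11. Among the most negative values were those of RFXANK (-3.39), IRF2 (-2.95) and IFNGR2 (-2.45), with limma adjusted p from 0.0854 for IFNGR2 to 0.255 for RFXANK. RFXANK had 0, 79.1 and 103 RPKM with hPRM2, so its value rests in part on the 0 of replicate 1. The ratio of its mean RPKM was 0.26. IRF2 was uneven in the controls, with 40.6, 0.854 and 20.1 RPKM, and these overlapped the hPRM2 values of 0, 2.49 and 0 RPKM. IFNGR2, a chain of the interferon gamma receptor, had 43.9, 49.3 and 60.2 RPKM with the empty vector and 9.10, 3.16 and 19.2 RPKM with hPRM2, without overlap. PSMB8 was listed at 0 in all hPRM2 libraries, as in the controls.

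The genes most like a member over the 9 libraries were sought among 14734 genes, by Pearson's r of log2(RPKM + 1). For B2M these were FTL, OSCAR and ZNF439 (r = 0.975, 0.967 and 0.966). For NLRC5 they were IL4R (r = 0.984), OXER1 (r = 0.983) and MOB3A (r = 0.978). For CD74, which was listed at 0 in 6 libraries, PLAAT4 and LYL1 had r of 0.99995 or more. The 9 points fall into the hPRM1-labelled libraries and the other 6, so that these values describe mainly that division.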

How the data were processed

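RNA of the 9 libraries (3 each labelled empty vector, hPRM1 and hPRM2) had been sequenced by the authors from 3′ ends, and reads were counted with nf-core/rnaseq (FastQC, Cutadapt, STAR and Salmon, genome hg38 per the submitters' processing notes). The versions are not given in the sources used here. The authors divided counts by the total reads of a library and by gene length and deposited RPKM values, without counts, in a single table of 57338 genes. Symbols were matched to 98.6% of identifiers, and 0 columns were left unused.

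Tests were run with limma 3.58.1 (R 4.3.3) after taking log2(RPKM + 1). A gene entered a comparison when 3 or more of its 6 libraries reached an RPKM of 1. The fits used eBayes (trend and robust), Benjamini-Hochberg adjustment over all genes tested, no replicate block and 1 fit per comparison. The script was tested on simulated data with the spread of the empty vector libraries. It called 72% of 200 changed genes in the hPRM1 comparison with the empty vector and 75% in that of hPRM2. Of unchanged genes it called 0.0523% and 0.0542%. The spread of the hPRM1-labelled and hPRM2 libraries was not simulated. Members below the filter were compared by exact permutation tests. Reads on genes were estimated from the steps between low RPKM values with GENCODE 29 lengths less 250 bases. Whole reads could not be recovered for nearly all genes, so no count test was run. Promoter sequences came from RefSeq (GRCh38.p14). Python 3.11.15, pandas 2.3.3, numpy 2.4.6 and matplotlib 3.10.9 were used.

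Members, the pathway list, marker lists and tests were chosen with earlier results of these data known. From the pathway list, the 3 immunoproteasome subunits and the 4 largest rises and 4 largest falls against the empty vector were named for each protamine. For B2M, CD74 and NLRC5, the 3 genes most like each were sought, leaving out members, HLA genes, immunoglobulin and T cell receptor segments and genes whose level depends on the person. As alternatives, the pseudocount was set to 0.1 or 5, the filter was dropped or raised to an RPKM of 10, values were rescaled by median ratios or quantile-normalized, all 9 libraries entered 1 model, the replicate number was a block, the fold threshold or the trend and robust settings were dropped, and each library was left out in turn. Mitochondrial and HLA genes and the DNA methylation data were not analysed here. Some genes that these rules would name, and 1 of the motifs searched, are not reported here.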

Additional observations from a re-analysis of the deposited data

How the results depend on the processing

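Of the 10 members compared between the hPRM1-labelled and the empty vector libraries, none changed sign under any alternative in which it was tested. The number called was 8 to 10, counting the 3 that passed the filter only through the libraries labelled hPRM1. At a minimum RPKM of 10, ERAP1 and CIITA were not tested. TAP1, TAP2, NLRC5, CD74 and CTSS then passed only through the libraries labelled hPRM1, and RFX5 only through the empty vector libraries. The filter thus fixed their direction at that setting. CIITA was lost at a pseudocount of 5 (0.67) and RFX5 with median-of-ratios rescaling, while ERAP1 was gained at a pseudocount of 0.1 (1.36), with both rescalings and without a fold threshold. A minimum RPKM of 10, which tests fewer genes, called 5837 genes in place of 10241, and 3750 in place of 6234 between hPRM1 and hPRM2. With hPRM2, the count of all called genes moved from 359 to 89 without a filter, 167 at a minimum of 10, 2125 with all 9 libraries in the fit and 1487 with median-of-ratios rescaling without replicate 1 of hPRM2 (chosen after seeing the data), and leaving out a single library gave 12 (empty vector replicate 3) to 2429 (hPRM2 replicate 1). The cause was not tested. The members called with hPRM2 went from 0 to 1, TAPBP, without replicate 1 of hPRM2, also after rescaling, and ranged from 0 to 1 when a library was left out. The pathway genes called with hPRM2 went from 0 to 1 with quantile normalization (CALR), to 3 with all 9 libraries (CALR, HSPA5 and IFNGR2) and ranged from 0 to 2 when a library was left out, LGMN and CTSL without hPRM2 replicate 1. The members called between hPRM1 and hPRM2, 7 with all libraries and CD74 and CIITA counted, ranged from 4 to 9. Against the empty vector, hPRM2 values changed sign for TAP2 (0.078) and NLRC5 (0.33) with quantile normalization and, with rescaling and without hPRM2 replicate 1, for TAP1 (0.42), NLRC5 (0.22) and RFX5 (0.14).

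Same-numbered libraries deviated together with correlations of -0.08 to 0.11, so the numbers were not taken to pair them. A replicate block called 57 genes with hPRM2 in place of 359, and 10334 and 5816 in the comparisons of hPRM1 with the empty vector and with hPRM2. It changed no call among the members. The shallow hPRM2 libraries limit what can be seen for genes of about 1 RPKM or less. There, 3 reads would have given 0.418 to 0.872 RPKM for TAP1 and 0.766 to 1.6 RPKM for CD74.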
